A study of Mus musculus with 10 samples.

Results

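The apolipoproteins and the genes of lipoprotein assembly are 32 of the 55401 genes counted in mouse liver. They were chosen by name, from what their products do, with earlier results of these data known. Each was found once among the gene identifiers. The libraries are stranded mRNA libraries from whole liver, 5 from wild-type mice and 5 from littermates labelled as liver-specific knockouts of Thrb, written here as Thrb hep-/-, with 1 library per mouse. Thrb encodes thyroid hormone receptor beta, the main thyroid hormone receptor of hepatocytes, and the comparison asks which liver transcripts depend on it in mice that were not challenged. The labels give the strain as C57Bl6/J in the sample titles and as C56Bl6/J in the strain field, and all mice ate standard chow. The study's supplementary data name Thrb-loxP and Afp-Cre as the crossed lines, the second with a Cre recombinase under the alpha-fetoprotein promoter, which is active in the hepatic lineage during development. The deletion is described as specific to hepatocytes, and neither the age nor the sex of these mice is given in the sources used here.

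Hepatocytes export lipid as particles built around apolipoproteins. Very low density lipoproteins (VLDL) are assembled in the endoplasmic reticulum on apolipoprotein B, which microsomal triglyceride transfer protein loads with lipid before the particle leaves in transport vesicles. In plasma, lipases remove triglyceride from these particles, small exchangeable apolipoproteins switch the lipases on or off, and receptors take up the remnants. High density lipoproteins (HDL) form on apolipoprotein A1 and are remodelled by an acyltransferase, lipid transfer proteins and hepatic lipase. Thyroid hormone is long known to alter plasma lipoproteins, with the liver as a main site of action. In bulk liver RNA, fewer cells of a type and less RNA per cell cannot be told apart.

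Total counts per library were between 26477195 and 28590704, and the 32 genes together took 3.37% to 4.13% of the counts in wild-type mice and 4.01% to 4.51% in Thrb hep-/- mice. Levels are counts scaled to library size (CPM) after scaling by trimmed means of M values (TMM). Genotypes were compared by the quasi-likelihood test of edgeR, and p-values were adjusted by Benjamini-Hochberg over all 12234 genes tested, with 0.15 as the threshold for a call, the one the study used, and 0.05 as a second one. The targeted gene fell by 0.32 on the log2 scale (SE 0.067, edgeR adjusted p = 0.036), which was a partial loss of reads counted over the whole gene, with no view of single exons, and Dio1, a thyroid hormone target encoding a deiodinase, fell by 3.03 (SE 0.18, edgeR adjusted p = 1.3e-05). Hectd3, another target used by the study, had a log2 fold change of -0.15 (edgeR adjusted p = 0.35). Of the other thyroid hormone targets read as a check, Me1, which encodes malic enzyme, rose by 0.79 on the log2 scale (SE 0.19, edgeR adjusted p = 0.065), while Thrsp had -1.28 (SE 0.50, edgeR adjusted p = 0.30) and Klf9 -0.0058 (edgeR adjusted p = 0.99).

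3 features of the libraries bear on the results below. Acute-phase genes were lower in Thrb hep-/- livers, 13 of the 18 on a list of them past the threshold, and their summed level was 37772 to 87967 CPM in wild-type mice against 25006 to 41853 CPM in Thrb hep-/- mice. The wild-type mice were not alike in this. Saa1, on that list, had 204058 and 98049 counts in wild-type replicates 2 and 5, against 7417 to 26684 in the other wild-type mice. Adipocyte markers (Adipoq, Plin1, Cfd and Lep) summed to at most 0.105 CPM in the wild-type libraries, where all but Cfd were at 0, and to 25.7, 51.6 and 34.7 CPM in Thrb hep-/- replicates 1, 4 and 5, against 0.562 and 0.137 CPM in replicates 2 and 3. Thrb hep-/- replicate 2 had high values for short genes: over 609 genes with under 1000 bp of exon, its median log2 deviation from the mean of the other 4 in its group was 0.30, against 0.0049 over the 11619 longer genes. Thrb hep-/- replicate 1 went the other way, with -0.21 over the short genes and 0.018 over the longer ones. Hepatocyte markers (Alb, Ttr, Tat, Ass1, Cps1 and Cyp2e1) were high in each library, with sums of 77441 to 118242 CPM in wild-type and 94089 to 107455 CPM in Thrb hep-/- mice, and 0 of the 6 passed edgeR's test, with 1 at an unadjusted p under 0.05 and 1 called by DESeq2. The Kupffer cell markers summed to 77.7 to 269 CPM and 89.7 to 192 CPM in these groups, with medians of 252 and 133 CPM. All 5 were fitted below 0, with a median log2 fold change of -0.75. Of the 5, 0 passed edgeR's test, with 2 at an unadjusted p under 0.05 and 1 called by DESeq2.

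All 32 genes passed the filter on low counts, and 3 passed the threshold in edgeR's test. Hepatic lipase (Lipc) was higher in Thrb hep-/- livers, and the neighbouring genes of apolipoprotein F (Apof) and apolipoprotein N (Apon) were lower. Among all genes tested, 4.08% passed, 1.51% as higher and 2.57% as lower. None of the 32 passed 0.05 in edgeR's test, against 1.35% of all genes, while 9 reached an unadjusted p under 0.05 (13.6% of all genes), 6 of them higher (6.15% of all genes) and 3 lower (7.41%). The genotypes did not overlap for 3 of the 32, against 3.64% of all genes. DESeq2 called 7 at 0.15 and 3 at 0.05, against 7.24% and 4.10% of all genes in that test. The fitted log2 fold change was above 0 in 22 of the 32 (50.1% of all genes), and the median was 0.10 against 0.00054 over all genes tested. In 22 of the 32 the 95% confidence interval lay within a 1.5-fold change in either direction, which held for 74.0% of all genes tested.

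**Figure D1:**
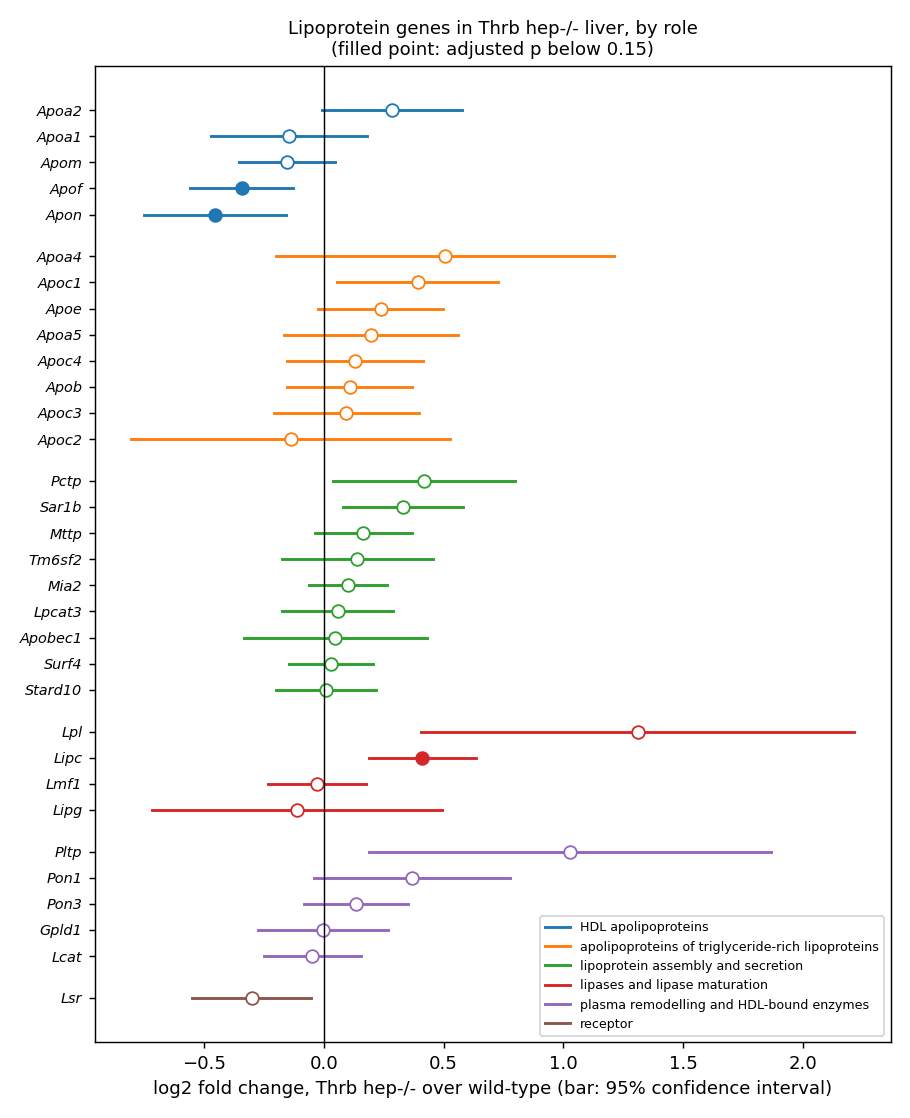
Log2 fold change of each of the 32 genes, Thrb hep-/- over wild-type (points), with its 95% confidence interval (bars), grouped by role and coloured by it, with filled points where edgeR's adjusted p was below 0.15. Lipc lies to the right of 0, Apof and Apon to the left, and the intervals of Lpl, Pltp, Apoa4 and Apoc2 are the widest.

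Before the single genes, the promoters of the genes past the threshold are shown, because Thrb encodes a factor that binds DNA as a dimer, usually with a retinoid X receptor, on pairs of the half-site AGGTCA. The windows hold 250 bases before to 50 after a RefSeq start on GRCm38.p6, read on the strand of the gene, and capitals mark AGGTCA or its reverse complement TGACCT. Apof has no entry in the table of promoters. Apon lies on chromosome 10 from 128254096 to 128255896 on the plus strand, and its window at chr10:128253881-128254180 holds 1 half-site, starting 171 bases before the start. Lipc spans chromosome 9 from 70798128 to 70952226 on the minus strand and has 2 windows: the one at the outer start, chr9:70952172-70952471, holds no half-site, and the one at a start within the gene, chr9:70934759-70935058, holds 2 that face each other with 6 bases between them, the first starting 88 bases before the start.
Apon: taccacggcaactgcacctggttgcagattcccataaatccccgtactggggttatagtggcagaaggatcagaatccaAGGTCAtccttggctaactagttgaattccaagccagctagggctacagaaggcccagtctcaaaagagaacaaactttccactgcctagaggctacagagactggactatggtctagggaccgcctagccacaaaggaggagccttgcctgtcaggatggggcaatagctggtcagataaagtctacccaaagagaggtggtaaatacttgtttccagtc
Lipc outer start: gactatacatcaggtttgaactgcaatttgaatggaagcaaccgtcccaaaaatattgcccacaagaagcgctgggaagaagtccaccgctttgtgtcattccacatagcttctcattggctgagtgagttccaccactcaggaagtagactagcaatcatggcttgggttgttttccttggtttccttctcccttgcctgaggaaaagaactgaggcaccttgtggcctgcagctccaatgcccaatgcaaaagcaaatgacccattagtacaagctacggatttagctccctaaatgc
Lipc inner start: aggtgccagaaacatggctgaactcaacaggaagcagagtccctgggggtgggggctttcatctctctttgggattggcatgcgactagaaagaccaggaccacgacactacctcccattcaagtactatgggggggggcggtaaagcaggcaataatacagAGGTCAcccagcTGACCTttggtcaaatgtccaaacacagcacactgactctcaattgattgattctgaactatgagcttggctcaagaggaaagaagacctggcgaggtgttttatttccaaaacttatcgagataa
The half-site was searched on both strands. It is a short motif, found in 16.3% of 32851 windows of this length over all genes. Among the 33 windows of the 26 lipoprotein genes with an entry, 7 held it, or 21.2%. 2 AGGTCA half-sites in the same direction with 4 bases between them (DR4, the classical thyroid hormone receptor element) or with 1 base between them (DR1), also searched on both strands, were in 0 of the 33, and in 0.0152% and 0.0396% of all windows. TATAAA on the sense strand was in 6 of the 33 (18.2%) and in 8.32% of all windows. A match of these letters is no evidence of binding, which was not measured in these samples, and its absence from the window says nothing of sites elsewhere.

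The other half-sites, each shown with up to 10 bases on either side, fell in windows of genes that did not pass the threshold and are given to show what surrounds the motif.
Apoa2, a start upstream of the annotated gene: ctcccaccctTGACCTttttttccat
Apoc2, 115 bases before the start: ttgaggccagAGGTCAaccttccgtc
Apoc2, 43 bases after the start: tccaggcaccAGGTCAga
Apoc4, 25 bases before the start: gagtgtggggAGGTCAcaaggggagg
Pctp, 14 bases after the start: ggccagtgagTGACCTgcgctccggg
Pon3, 27 bases after the start: cttgtggcgcTGACCTtgctgggagc
These windows lie at chr1:171221314-171221613 (Apoa2, plus strand), chr7:19677892-19678191 (Apoc2, minus), chr7:19681411-19681710 (Apoc4, minus), chr11:90002845-90003144 (Pctp, minus) and chr6:5256184-5256483 (Pon3, minus). No entry was found for Apof, Apoc1, Apoc3, Tm6sf2, Lpl and Lipg.

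Among the 5 apolipoproteins carried mainly on HDL, Apof and Apon passed the threshold, both lower in Thrb hep-/- livers, and Apoa1, Apoa2 and Apom did not. Apolipoprotein F is a secreted glycoprotein known as an inhibitor of lipid transfer between lipoproteins. Apof (ENSMUSG00000047631) stood at 701, 815, 714, 707 and 817 CPM in wild-type replicates 1 to 5 and at 577, 679.6, 562, 516 and 625 CPM in Thrb hep-/- replicates 1 to 5. Each Thrb hep-/- mouse was thus below each wild-type mouse, which was so for 2.26% of all genes tested. The mean went from 751 ± 59.7 to 592 ± 62.3 CPM (SD, n = 5 each), a log2 fold change of -0.34 (SE 0.099, 95% interval -0.56 to -0.13, edgeR adjusted p = 0.12). Apon (ENSMUSG00000051716), an apolipoprotein gene of mouse next to Apof, stood at 657, 598, 528, 587 and 617 CPM in wild-type mice and at 589, 432, 349.8, 359 and 453 CPM in Thrb hep-/- mice. Replicate 1 of the Thrb hep-/- mice was within the wild-type range and the other 4 were below it. The mean of Apon went from 597 ± 46.9 to 436 ± 96.4 CPM (SD, n = 5 each), a log2 fold change of -0.45 (SE 0.14, 95% interval -0.75 to -0.16, edgeR adjusted p = 0.146), the value closest to the threshold among the genes called. 

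Both calls depended on single mice. With each mouse left out in turn, Apof passed in 3 of 10 fits (without wild-type replicate 1, wild-type replicate 4 or Thrb hep-/- replicate 2), with edgeR adjusted p from 0.065 to 0.29, and Apon in 1 of 10, without Thrb hep-/- replicate 1, with edgeR adjusted p from 0.025 to 0.32. The direction held in all 10 for both. When a component of the acute-phase genes was added to the model, the log2 fold change moved to -0.086 for Apof and -0.023 for Apon (edgeR adjusted p = 1.0 for both). This component had a correlation of -0.84 with genotype over the 10 mice, so the acute-phase level and the genotype cannot be told apart in this fit, and the part of the acute-phase genes in the result was not tested. Without the 3 libraries with adipocyte markers, the log2 fold change of Apof was -0.27 (edgeR adjusted p = 0.49) and that of Apon -0.60 (edgeR adjusted p = 0.14), and 1.44% of all genes passed.

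Apon and Apof are adjacent on chromosome 10 of GRCm38, on the plus strand, 12774 bp apart, with no annotated gene between them, Timeless upstream and Stat2 downstream. Their longest open reading frames, 756 and 981 bp, were 46.1% identical in a global alignment, and the longest identical run between their transcripts was 11 bp, so that few reads could map to both. Neither shares exonic bases with another annotated gene.

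Apoa1 encodes the main structural protein of HDL and Apoa2 its second most abundant one, and Apom encodes a lipocalin that carries sphingosine 1-phosphate on HDL. The log2 fold change was -0.15 for Apoa1 (95% interval -0.47 to 0.18), 0.29 for Apoa2 (95% interval -0.0077 to 0.58) and -0.15 for Apom (95% interval -0.35 to 0.047), with edgeR adjusted p between 0.38 and 0.74 over the 3 genes. The wild-type mice themselves ranged from 6377 to 9497 CPM for Apoa1, wider than the 6043 to 8215 CPM of the Thrb hep-/- mice.

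**Figure D2:**
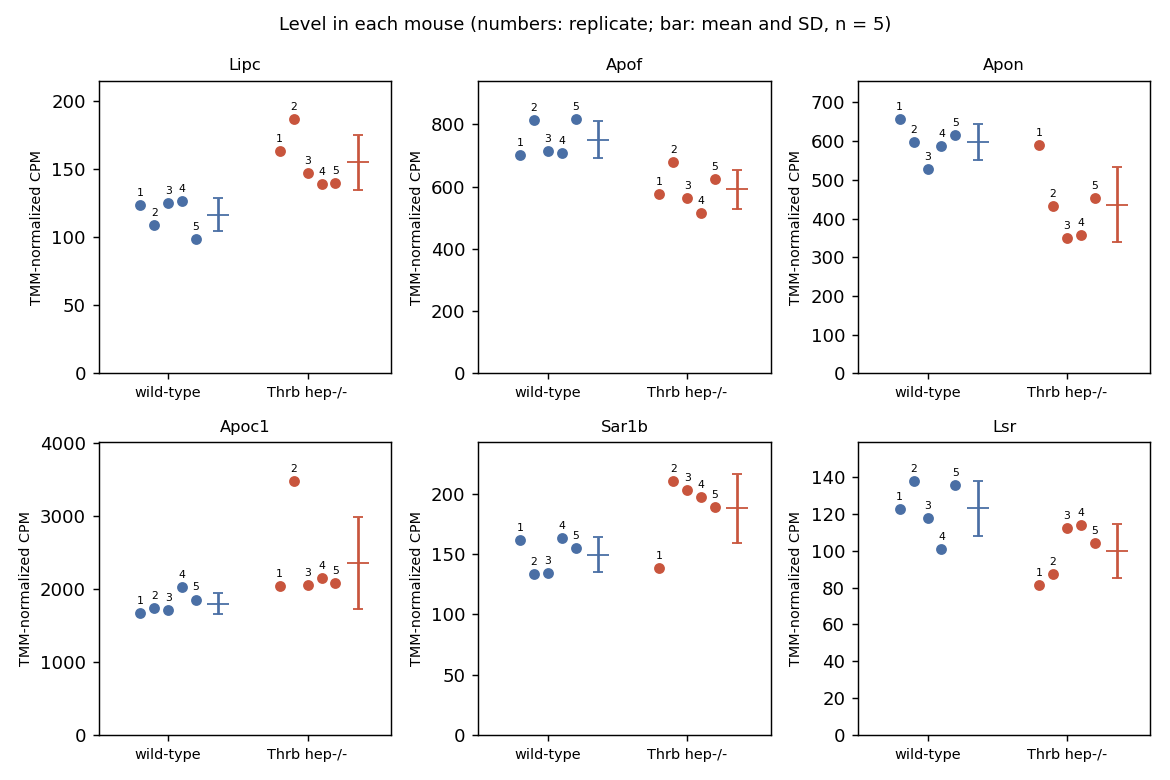
TMM-normalized CPM of Lipc, Apof, Apon, Apoc1, Sar1b and Lsr in each mouse (points, numbered by replicate), with the mean and SD of each genotype (bars, n = 5). The genotypes do not overlap for Lipc, Apof and Apoc1, and Thrb hep-/- replicate 1 lies within the wild-type range for Apon and Sar1b.

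Of the 8 apolipoproteins of triglyceride-rich lipoproteins, 0 passed the threshold in edgeR's test and 1, Apoc1, reached an unadjusted p under 0.05. DESeq2 called that gene (adjusted p = 0.14). Apoc1, whose product inhibits lipoprotein lipase and remnant uptake, stood at 1671, 1731, 1715, 2019 and 1854 CPM in wild-type mice and at 2035, 3483, 2049, 2147 and 2076 CPM in Thrb hep-/- mice. The genotypes did not overlap (1.38% of all genes tested do not overlap with Thrb hep-/- higher), but 4 of the 5 Thrb hep-/- mice were just above the highest wild-type mouse and replicate 2 was far above the rest. The log2 fold change was 0.39 (SE 0.16, edgeR adjusted p = 0.29) with replicate 2 and 0.21 (edgeR adjusted p = 0.31) without it. Replicate 2 was also the library with high values for short genes, and Apoc1 has 744 bp of exon. The part of that length trend in the result was not tested beyond a fit that takes a trend on exon length off each library, in which the log2 fold change of Apoc1 was 0.33 (edgeR adjusted p = 0.24).

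The other 7 fell on both sides of 0 without passing. Apob, the structural protein of VLDL, had a log2 fold change of 0.11 (95% interval -0.15 to 0.37) and Apoe, the ligand for remnant uptake, 0.24 (95% interval -0.023 to 0.50). Apoc3, an inhibitor of triglyceride lipolysis, had 0.093 (95% interval -0.21 to 0.40), and Apoa5, an activator of lipolysis, had 0.20 (95% interval -0.17 to 0.56). Apoc4 had 0.13 (95% interval -0.15 to 0.41), and 0.00046 without Thrb hep-/- replicate 2. The widest intervals were those of Apoa4 (0.51, 95% interval -0.20 to 1.21), a gene mainly of the intestine, and Apoc2 (-0.14, 95% interval -0.80 to 0.53), the cofactor of lipoprotein lipase. For both, reads could have been lost to overlapping annotations, since a read that overlapped several genes was not counted: 69.8% of the exonic bases of Apoa4 are shared with the antisense genes Gm47528 and Gm10680, and 79.5% of those of Apoc2 with the readthrough gene Gm44805, in the GENCODE release used here. The level of Apoc2, 2.14 ± 0.663 CPM in wild-type mice (SD, n = 5), is uncertain for that reason, and Gm44805 itself had 0 counts in all 10 libraries.

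7 of these 8 genes lie in clusters shared by neighbours. Apoc2, Apoc4, Apoc1 and Apoe occupy 27.6 kb of chromosome 7, and Apoa1, Apoc3, Apoa4 and Apoa5 occupy 43.3 kb of chromosome 9. Within the chromosome 7 cluster the log2 fold changes ran from -0.14 (Apoc2) to 0.39 (Apoc1), and within the chromosome 9 cluster from -0.15 (Apoa1) to 0.51 (Apoa4), with none of the 8 called by edgeR.

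The 9 genes of assembly and secretion were each fitted above 0 and 0 passed the threshold in edgeR's test, with 2 at an unadjusted p under 0.05 (Sar1b and Pctp). Their median log2 fold change was 0.10, against 0.00054 over all genes tested, and 8 of the 9 intervals lay within 1.5-fold. Mttp, the transfer protein that loads apolipoprotein B, had 0.17 (95% interval -0.039 to 0.37) at 308 ± 31.3 CPM in wild-type and 346 ± 29.0 CPM in Thrb hep-/- mice (SD, n = 5 each). Sar1b, the small GTPase of the COPII coat that carries large lipoproteins out of the endoplasmic reticulum, was next to the threshold. It stood at 162, 133, 135, 163 and 155 CPM in wild-type mice and at 139, 211, 204, 198 and 189 CPM in Thrb hep-/- mice. Thrb hep-/- replicates 2 to 5 were above each wild-type mouse and replicate 1 was within their range, and the log2 fold change was 0.33 (SE 0.11, edgeR adjusted p = 0.22). Without Thrb hep-/- replicate 1 it was 0.42 and passed (edgeR adjusted p = 0.039), and DESeq2 also called it (adjusted p = 0.11). Without the 3 libraries with adipocyte markers it was 0.48 and barely past the threshold (edgeR adjusted p = 0.1496). Those 3 libraries include replicate 1, so this fit is not independent of the one without replicate 1, and it compared 5 mice with 2.

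The cargo receptor genes Surf4 and Mia2 had narrow intervals around small values, 0.029 (95% interval -0.15 to 0.21) and 0.10 (95% interval -0.060 to 0.27). Tm6sf2, which is needed for lipidation of VLDL, had 0.14 (95% interval -0.18 to 0.45). Apobec1, which edits Apob mRNA to give the short apolipoprotein B48, had 0.048 (95% interval -0.33 to 0.43), and Lpcat3, which makes polyunsaturated phosphatidylcholine, had 0.058 (95% interval -0.17 to 0.29). The phospholipid transfer proteins Stard10 and Pctp had 0.0090 (95% interval -0.20 to 0.22) and 0.42 (95% interval 0.037 to 0.80, edgeR adjusted p = 0.32). Pctp passed without wild-type replicate 4 (log2 fold change 0.55, edgeR adjusted p = 0.14).

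Among the 3 lipases and the lipase maturation factor, Lipc was the gene that passed. Hepatic lipase is made by hepatocytes and hydrolyses triglyceride and phospholipid of HDL and remnants. Lipc (ENSMUSG00000032207) stood at 124, 109, 125, 127 and 98.6 CPM in wild-type mice and at 164, 187, 147, 139 and 140.0 CPM in Thrb hep-/- mice. All 5 Thrb hep-/- mice were above all 5 wild-type mice, which was so for 1.38% of all genes tested. The mean went from 117 ± 12.3 to 155 ± 20.2 CPM (SD, n = 5 each), a log2 fold change of 0.41 or 1.33-fold (SE 0.10, 95% interval 0.19 to 0.64, edgeR adjusted p = 0.077), on 2635 to 4977 counts per library. It was past the threshold in 8 of the 10 fits that leave out a mouse, and not without wild-type replicate 2 (edgeR adjusted p = 0.18) or wild-type replicate 5 (edgeR adjusted p = 0.16). When the acute-phase component was added to the model, the log2 fold change of Lipc was 0.43 and did not pass (edgeR adjusted p = 1.0). That component cannot be told apart from genotype, and the part of the acute-phase genes in the result was not tested. Without the 3 libraries that hold adipocyte markers the log2 fold change of Lipc was 0.52 (edgeR adjusted p = 0.18).

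Lipoprotein lipase (Lpl), which clears triglyceride at capillary walls of muscle and adipose tissue and is low in adult hepatocytes, had the largest fold change of the 32 genes but did not pass. It stood at 11.2, 22.4, 13.7, 17.4 and 6.92 CPM in wild-type mice and at 34.9, 15.4, 22.1, 55.0 and 50.4 CPM in Thrb hep-/- mice. The log2 fold change was 1.31 (SE 0.40, 95% interval 0.41 to 2.21, edgeR adjusted p = 0.18), and DESeq2 called it (adjusted p = 0.052). The 3 mice with the highest Lpl, Thrb hep-/- replicates 4, 5 and 1, were those in which the adipocyte markers were found, while replicates 2 and 3 lay within the wild-type range. Fabp4, expressed in adipocytes and capillary endothelium, followed the same libraries with 21.9, 7.69, 5.18, 37.7 and 40.5 CPM in Thrb hep-/- replicates 1 to 5 and 3.67 to 5.40 CPM in wild-type mice. Without these 3 libraries the log2 fold change of Lpl was 0.40 (edgeR adjusted p = 0.73). The part of fat tissue in the result was not tested further. Endothelial lipase (Lipg) and the lipase maturation factor Lmf1 had log2 fold changes of -0.11 (95% interval -0.72 to 0.49) and -0.027 (95% interval -0.23 to 0.18).

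**Figure D3:**
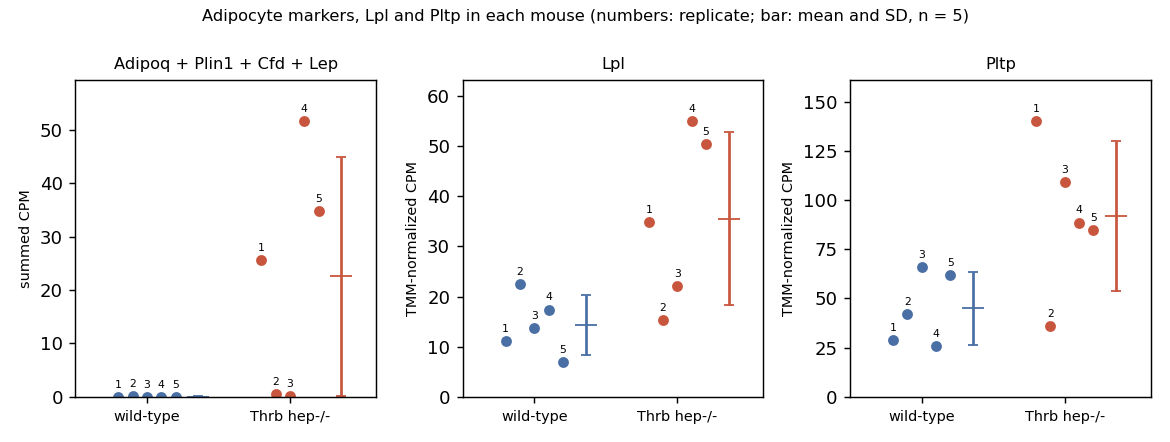
Summed CPM of the 4 adipocyte markers and TMM-normalized CPM of Lpl and Pltp in each mouse (points, numbered by replicate), with the mean and SD of each genotype (bars, n = 5). Thrb hep-/- replicates 1, 4 and 5 hold the markers and have the highest Lpl, while Pltp is high in replicates 1, 3, 4 and 5.

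Of the 5 plasma remodelling and HDL-bound enzymes, 0 passed in edgeR's test, 1 reached an unadjusted p under 0.05, and DESeq2 called that one, Pltp (adjusted p = 0.145). Phospholipid transfer protein moves surface phospholipid from triglyceride-rich particles to HDL. Pltp stood at 28.8, 42.3, 66.1, 26.0 and 61.8 CPM in wild-type mice and at 140.2, 35.9, 109, 88.6 and 84.8 CPM in Thrb hep-/- mice. Replicates 1, 3, 4 and 5 were above all wild-type mice and replicate 2 was within their range. Of the 4 high mice, replicate 3 had 0.137 CPM of adipocyte markers. The part of fat tissue in the Pltp values was not tested. The log2 fold change was 1.03 (SE 0.38, 95% interval 0.19 to 1.87, edgeR adjusted p = 0.27), it was 1.24 and past the threshold without replicate 2 (edgeR adjusted p = 0.093), and 0.70 (edgeR adjusted p = 0.63) without the 3 libraries with adipocyte markers. Pltp shares 19.3% of its exonic bases with the antisense neighbour Ctsa, where reads were not counted.

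The other 4 enzymes had smaller values. Lcat, which esterifies cholesterol on HDL, had a log2 fold change of -0.048 (95% interval -0.25 to 0.15), and Gpld1, a phospholipase carried on HDL, had -0.0038 (95% interval -0.27 to 0.27), with 45.5% of its exonic bases shared with the antisense gene Mrs2. The paraoxonases Pon1 and Pon3, antioxidant enzymes of HDL from a cluster on chromosome 6, had 0.37 (95% interval -0.040 to 0.78) and 0.13 (95% interval -0.084 to 0.35). For Pon1, Thrb hep-/- replicate 2 stood at 945 CPM against 569 to 623 CPM in the other 4, and the value without it was 0.22. Lsr, the lipolysis-stimulated lipoprotein receptor and the single receptor of the set, stood at 123, 138, 118, 101 and 136 CPM in wild-type mice and at 81.7, 87.2, 112, 114 and 104 CPM in Thrb hep-/- mice. Thrb hep-/- replicates 1 and 2 were below all wild-type mice and the others overlapped with them (log2 fold change -0.30, SE 0.12, edgeR adjusted p = 0.27).

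The levels of the 32 genes relative to each other were compared per kb of merged exons. In wild-type livers Apoa2 (6449 ± 715 CPM per kb), Apoa1 (6292 ± 1258 CPM per kb) and Apoe (5855 ± 640.2 CPM per kb) led (SD, n = 5 each), and these 3 did not differ beyond their spread. Apoa2 stood at 6616, 5313, 6284, 7181 and 6849.7 CPM per kb in wild-type mice and at 7851, 9947, 6847, 6533 and 8118 CPM per kb in Thrb hep-/- mice. Apoa1 stood at 7684, 5729, 5159, 7614 and 5272 CPM per kb in wild-type mice and at 5660.5, 6131, 5113, 4889 and 6646 CPM per kb in Thrb hep-/- mice. Apoe stood at 6127, 5454, 6029, 6662 and 5005 CPM per kb in wild-type mice and at 6797, 7947, 6199, 6587 and 6970.3 CPM per kb in Thrb hep-/- mice. The genotypes overlapped for all 3, and the widest spread in wild-type mice was that of Apoa1. Below them came Apoc1 (2417 CPM per kb), Apoc3 (1222 CPM per kb) and Apof (597 CPM per kb), each apart from its neighbours in the order, and at the bottom Lipg (2.77 CPM per kb), Apoc2 (2.64 CPM per kb) and Lpl (1.37 CPM per kb), whose values overlapped. Apob, with 13934 bp of exon, was 9th of the 32 per kb, at 359 CPM per kb. Of the 31 pairs of neighbours in this order, 22 overlapped between the wild-type mice. The places of genes with many shared exonic bases, such as Apoc2 and Apoa4, are uncertain, since reads there were not counted.

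In Thrb hep-/- livers the order was much the same: 12 genes kept their place and none moved by more than 4 places. Pltp moved from the 25th place to the 21st. The order depends on the length used, and with the longest transcript in place of merged exons genes moved by up to 6 places, with Apoe first at 8891 CPM per kb. With that length Apoc2 was last at 2.95 CPM per kb, and Lpl had 3.48 CPM per kb in wild-type mice.

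**Figure D4:**
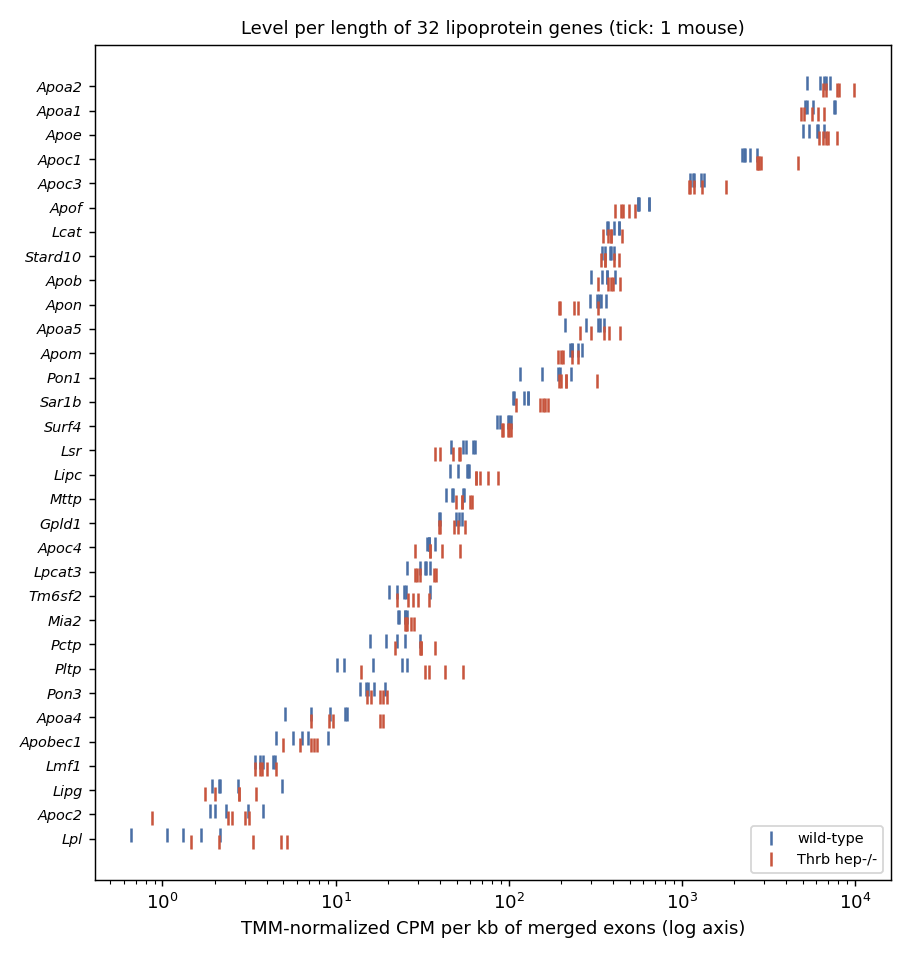
TMM-normalized CPM per kb of merged exons on a log axis for each of the 32 genes, ordered by the wild-type mean, with 1 tick per mouse and colours for genotype. Levels span from 1.37 (Lpl) to 6449 (Apoa2) CPM per kb in wild-type means, and the ticks of neighbouring genes overlap in most pairs.

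The mice differed from each other in more than genotype. Thrb hep-/- replicate 2 was the highest of its group for 14 of the 32 genes (43.8%, against 27.4% of all genes tested). Among these were Apoa2 and Apoc1, which have 537 and 744 bp of exon, and the longer Apoc3, Apoc4, Apoe and Pon1. Wild-type replicate 4 was the highest of its group for 15 of the 32 (46.9%, against 20.3% of all genes), and wild-type replicate 2 the lowest for 11 (34.4%, against 18.0%). Without Thrb hep-/- replicate 2, 4 genes passed the threshold: Apof and Lipc as before, plus Lpl and Pltp, while 634 of all genes passed (5.14%, against 4.08% with all 10 mice). Without wild-type replicate 2 or wild-type replicate 5, 0 of the 32 passed in edgeR's test, where 7 and 8 reached an unadjusted p under 0.05 and 256 and 284 of all genes passed. These mice had the highest counts of the acute-phase genes Saa1 and Saa2. They also had the highest Apof and the lowest Lipc levels of the wild-type group. Whether these features are linked was not tested.

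**Figure D5:**
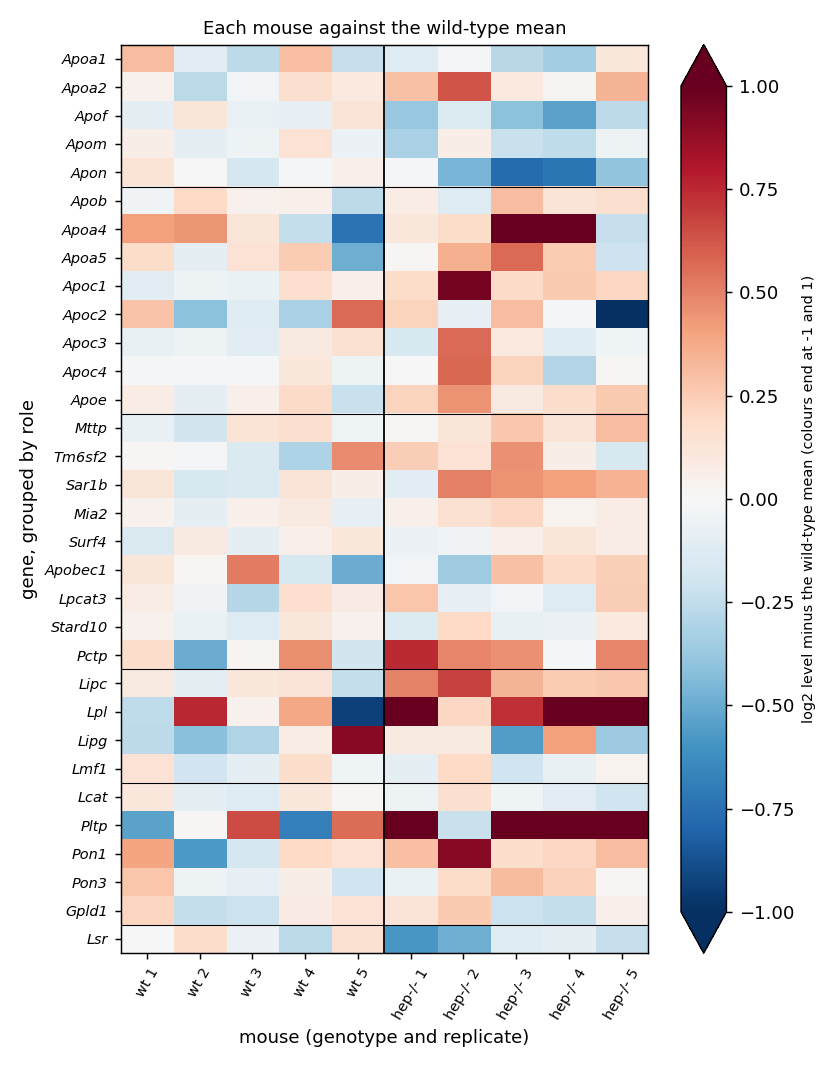
Log2 level of each of the 32 genes (rows, grouped by role) in each mouse (columns), minus the wild-type mean of that gene, with colours ending at -1 and 1. Lipc is above and Apof below the wild-type mean in all 5 Thrb hep-/- mice, and Thrb hep-/- replicate 2 is high for Apoa2, Apoc1, Apoc3, Apoc4, Apoe and Pon1.

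Around these genes, 55 companion genes of lipoprotein metabolism were read in the same fit, of which 53 were tested. At the threshold, 9 passed (17.0%, against 4.08% of all genes), 5 higher and 4 lower. The companion lists were drawn up with earlier results of these data known, so this difference in shares is no evidence of enrichment. Of the 9 receptors and uptake genes, 1 passed: the VLDL receptor gene Vldlr, low in liver, went from 0.672 ± 0.205 to 2.22 ± 0.748 CPM (SD, n = 5 each; log2 fold change 1.72, SE 0.27, edgeR adjusted p = 0.0084). 4 of the 5 wild-type libraries were under 1 CPM, so that Vldlr passed the filter on low counts through the Thrb hep-/- group and could be tested only because it was higher there. Lrp1, a remnant receptor, and Scarb1, the HDL receptor, had log2 fold changes of -0.36 and -0.072 and did not pass. Of the 5 genes on the list of lipase regulators, Cd300lg passed (log2 fold change 0.42, SE 0.083, edgeR adjusted p = 0.026). Whether its product regulates a lipase was not tested. Angptl4, Angptl8 and Gpihbp1 did not pass, with values from -0.46 (Angptl8) to 0.87 (Angptl4).

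Of the 8 genes tested for HDL formation and efflux, 3 passed, all lower. The sterol transporter genes Abcg5 and Abcg8, whose products pump cholesterol into bile, had log2 fold changes of -0.81 (SE 0.12, edgeR adjusted p = 0.0063) and -0.67 (SE 0.15, edgeR adjusted p = 0.049). Saa4, a serum amyloid A apolipoprotein of HDL, had -1.25 (SE 0.18, edgeR adjusted p = 0.0054), and clusterin (Clu) was just outside at -0.34 (edgeR adjusted p = 0.155), at 2110.4 CPM in wild-type and 1665 CPM in Thrb hep-/- mice. Abca1, which starts HDL formation, had -0.24 and did not pass. The acute-phase list, which holds other serum amyloid A genes, was lower in the same mice, and when its component was added to the model 0 of the companion genes passed in edgeR's test, where 2 reached an unadjusted p under 0.05 and 11 of all genes passed. In that fit the log2 fold change was 1.55 for Vldlr, 0.30 for Cd300lg, -0.43 for Abcg5, -0.19 for Abcg8 and -0.76 for Saa4. It was 0.27 for Acsl1, 0.25 for Pnpla2, 0.18 for Ces1d and -0.27 for Srebf1. The component cannot be told apart from genotype, and the part of the acute-phase genes was not tested.

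Of the 14 genes of lipid supply and particle assembly, 3 passed, all higher. Acsl1, an acyl-CoA synthetase, had a log2 fold change of 0.75 (SE 0.16, edgeR adjusted p = 0.035), Pnpla2, the main triglyceride lipase of lipid droplets, 0.42 (SE 0.11, edgeR adjusted p = 0.093), and Ces1d, a carboxylesterase that mobilises triglyceride for VLDL, 0.93 (SE 0.25, edgeR adjusted p = 0.10). Without the 3 libraries with adipocyte markers they had 0.67, 0.39 and 0.96 (edgeR adjusted p from 0.29 to 0.38). Of the 17 transcription factor genes tested, Srebf1, the lipogenic regulator, passed with -0.85 (SE 0.23, edgeR adjusted p = 0.10), and Hnf4a, Ppara, Nr1h3 and Mlxipl had values from 0.037 to 0.20 and did not pass. Without the 3 libraries with adipocyte markers, 2 of the 9 companion genes called in all mice passed, Vldlr and Saa4, in a comparison of 5 mice with 2.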

How the data were processed

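Liver RNA of 5 wild-type and 5 Thrb hep-/- mice was sequenced, and mice were grouped by the labelled genotype. The authors aligned the reads to mm10 with HISAT2 (version 2.2.1 in the submitters' processing notes) and deposited raw counts per Ensembl gene from HTSeq (version 0.9.1), made in union mode without strand and without reads that map to several places or overlap several genes. Genes with overlapping neighbours therefore lose reads. A deposited table of the authors' own comparison (fold changes and p-values) was not used.

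The counts were modelled in edgeR 4.0.16 (R 4.3.3), as in the study's methods. A gene was tested if 5 or more libraries reached 1 CPM. TMM factors and a robust quasi-likelihood fit on genotype alone were used, with Benjamini-Hochberg adjustment over all genes tested. Standard errors were derived from the log2 fold change and its F statistic, and 95% intervals use the test's degrees of freedom. At this depth 3 counts correspond to 0.0993 to 0.117 CPM. The fit was tested on simulated data. P-values set the difference between genotypes against the spread between mice. Coordinates, exon lengths and overlaps come from GENCODE vM21 on GRCm38, which may differ from the annotation used for counting. Promoter windows come from RefSeq on GRCm38.p6.

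The 32 genes, the companion, acute-phase and marker lists and the tests were chosen with earlier results of these data known. All 32 genes are named, with a value for each mouse for those called, the 4 next to the threshold (Lpl, Sar1b, Lsr and Pltp), Apoc1, which was chosen after its values were seen, and the 3 with the highest levels per length, and companion genes are named where called. The values of some companion genes are not reported here singly. Alternatives were DESeq2 1.42.0, RLE normalization, no filter, limma-voom (limma 3.58.1) with sample weights, a block on the replicate number, components of clock or acute-phase genes as covariates, and leaving out each mouse. Leaving out the 3 libraries with adipocyte markers and a trend on exon length were added after seeing the data.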

Additional observations from a re-analysis of the deposited data

Results flagged for a closer look

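In 5 of 86 groups of 5 values checked (a gene or the total count in 1 genotype), 1 mouse lay far from the other 4 by Dixon's criterion, where chance gives about 1 in 20 groups. 3 of the 5 were Thrb hep-/- replicate 2: Apoc1 at 3483 CPM against 2035 to 2147 CPM in the other 4, Pon1 at 945 CPM against 569 to 623 CPM, and the total count at 27779196 against 28441288 to 28590704, which is still a small difference in depth. Wild-type replicate 4 had Apoc4 at 95.5 CPM against 86.0 to 88.2 CPM, a narrow range in which a small gap is enough. Wild-type replicate 5 had Lipg at 23.1 CPM against 9.13 to 12.9 CPM.

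The summed adipocyte markers stood at 25.7, 51.6 and 34.7 CPM in Thrb hep-/- replicates 1, 4 and 5, above the 0 to 0.105 CPM of the wild-type libraries.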

How the results depend on the processing

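Of all genes tested, 499 passed 0.15 and 165 passed 0.05. At 0.15 the count was 885 with DESeq2, 849 with limma-voom, 11 with the acute-phase component as covariate, 182 without the 3 libraries with adipocyte markers (added after seeing the data) and 229 to 684 with 1 mouse left out, lowest without Thrb hep-/- replicate 3 and highest without Thrb hep-/- replicate 1. At 0.05 it was 502 with DESeq2, 294 with no filter, 291 with limma-voom, 5 with the acute-phase component, 26 without those 3 libraries and 81 to 191 with 1 mouse left out. Of the 32 genes, 3 passed 0.15 and 0 passed 0.05. At 0.15 it was 7 with DESeq2, 5 with limma-voom, 1 with the replicate block, 0 with the acute-phase component (1 at an unadjusted p under 0.05, edgeR), 2 without the 3 libraries (Apon and Sar1b) and 0 to 4 with 1 mouse left out. At 0.05 it was 3 with DESeq2, 1 with no filter, 1 with limma-voom and 0 to 2 with 1 mouse left out. Of the companion genes, 9 passed 0.15, against 0 with the acute-phase component and 2 without the 3 libraries. The log2 fold change of Thrb was -0.32, and it no longer passed with the acute-phase component (-0.34) or without the 3 libraries (-0.30). The causes of these shifts were not tested. Fits with fewer mice have less power by construction. With 1 mouse left out, the count of all genes at 0.15 lay below 499 in some fits and above it in others.

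No pairing of the mice by replicate number was seen: deviations of same-numbered mice had correlations of -0.20 to 0.0091, and 0 of the 5 were most like their own number. Other differences between the libraries enter these correlations, so they cannot exclude a pairing. With the replicate block the call of Apon was kept, while Lipc (0.41, edgeR adjusted p = 0.156) and Apof (-0.35, edgeR adjusted p = 0.17) were just outside, and 304 of the 499 genes were shared. With the clock component as covariate (0 of the 14 clock genes tested passed in edgeR's test or DESeq2, 1 at an unadjusted p under 0.05), Lipc, Apof, Apon and Sar1b passed. With the length trend, Apof and Lipc did, and Apon had an edgeR adjusted p of 0.153.

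The sign changed under some setting for 13 of the 32 genes. In the fit of all mice on genotype alone, none of these was called and none was over 0.20 in size. The changed values had an edgeR or other adjusted p of at least 0.80 each time. With the acute-phase component these were Apoa1 (0.042), Apoa5 (-0.15), Mttp (-0.11), Apobec1 (-0.47), Lmf1 (0.021), Lcat (0.043) and Gpld1 (0.30). Without the 3 libraries they were Apoc2 (0.089), Apobec1 (-0.023), Lpcat3 (-0.056), Lmf1 (0.013), Lcat (0.066) and Gpld1 (0.036). Gpld1 also turned with DESeq2 (0.00039), RLE (0.00039), the clock component (0.020) and the length trend (0.011), Lmf1 with the length trend (0.0036), Stard10 with limma-voom (-0.0083) and Lipg with the clock component (0.017). With 1 mouse left out the ranges that crossed 0 were -0.26 to 0.073 (Apoc2), -0.048 to 0.15 (Apoc3), -0.0024 to 0.059 (Surf4), -0.057 to 0.20 (Apobec1), -0.0071 to 0.10 (Lpcat3), -0.038 to 0.045 (Stard10), -0.25 to 0.20 (Lipg), -0.082 to 0.019 (Lmf1) and -0.069 to 0.055 (Gpld1). Fits without mice required 1 CPM in as many libraries as the smaller genotype had.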
